A study of Mus musculus with 10 samples.

Results

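Peaks of the NF-κB subunit p65 were examined at 8 genes of the acute-phase response, the complement system and clotting, out of 21887 protein-coding genes. They were Saa3, Lcn2, Hp and Ptx3 (acute phase), C3 and Cfb (complement), and Plaur and F3 (plasminogen activation and clotting). A peak was taken for a gene when it overlapped the gene, as annotated in RefSeq on GRCm38, or the 10 kb on either side. Of 536143 peaks in the 9 lists, 231 met this rule. RAW264.7 cells, a mouse macrophage line from an Abelson leukaemia virus tumour and labelled WT, received DMSO (the solvent), DMSO+LPS (here LPS, a bacterial lipopolysaccharide that activates macrophages) or LPS+Skatole (skatole is a tryptophan product of gut bacteria). Treatment lasted 12 h, and 200000 cells entered each library. CUT&Tag, which uses an antibody to bring a DNA-cutting transposase to the bound factor and then sequences the fragments set free, gave 3 peak lists per group. The labels name a p65 antibody and the methods an antibody against phosphorylated p65, and the Blank sample without primary antibody was not analysed here. No source says whether the libraries of a group came from separate cultures, so p-values measure only the spread between these libraries, which may be technical. A peak list holds no expression level, so the macrophage label was not checked against marker genes.

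Acute-phase proteins are secreted during inflammation, mainly by the liver and in part by macrophages, and NF-κB is a known activator of several of their genes, often together with C/EBP factors. Complement is a cascade of plasma proteins in which C3 is the central component and factor B, the product of Cfb, forms the convertase of the alternative pathway with it. F3 encodes tissue factor, which starts clotting, and Plaur encodes the urokinase receptor, which holds plasminogen activation at the cell surface.

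The libraries differed in depth between the groups. The genome background, which is the lowest expected read count the peak caller used in a library and serves as a measure of depth, ranged from 1.09 to 1.40 with DMSO, from 2.23 to 2.34 with LPS and from 2.26 to 2.39 with LPS+Skatole. The lists held 37551 to 43450 peaks with DMSO, 55637 to 63498 with LPS and 78136 to 80153 with LPS+Skatole. DMSO libraries were thus the shallowest and had the shortest lists, while LPS and LPS+Skatole libraries had nearly the same depth and lists of different length. Summit heights below are read counts at the summit divided by the genome background of the library, which scales them for depth. Ranks count from the top of a list by −log10 p. The division does not make the floors of the lists equal. The lowest height in a list was 6.44 to 7.34 with DMSO, 4.69 to 4.94 with LPS and 4.59 to 4.87 with LPS+Skatole.

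LPS libraries had more p65 peaks around these genes than DMSO libraries. Summed over the 8 windows there were 13, 10 and 18 peaks with DMSO, 32, 32 and 30 with LPS, and 38, 30 and 28 with LPS+Skatole. All LPS libraries lay above all DMSO libraries, and the LPS+Skatole libraries spanned the LPS values. Per 10000 peaks of the list, this was 3.46, 2.30 and 4.40 with DMSO, 5.75, 5.51 and 4.72 with LPS, and 4.83, 3.84 and 3.49 with LPS+Skatole. Lists cut to equal length gave means of 13.3 ± 3.51 peaks with DMSO, 24.7 ± 1.53 with LPS and 18.7 ± 2.08 with LPS+Skatole (SD, n = 3), and summit counts scaled to the shallowest library gave 13.3 ± 3.51, 27 ± 2.65 and 27 ± 4.36. At least 1 peak was present at 6, 5 and 7 of the 8 genes with DMSO and at 7 in every LPS and LPS+Skatole library, beside means of 65.03%, 70.1% and 75.8% of all genes per library. The gene without a peak in any library was Ptx3, as were 10.9% of all genes. Counts of genes below are therefore over the other 7.

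**Figure D1:**
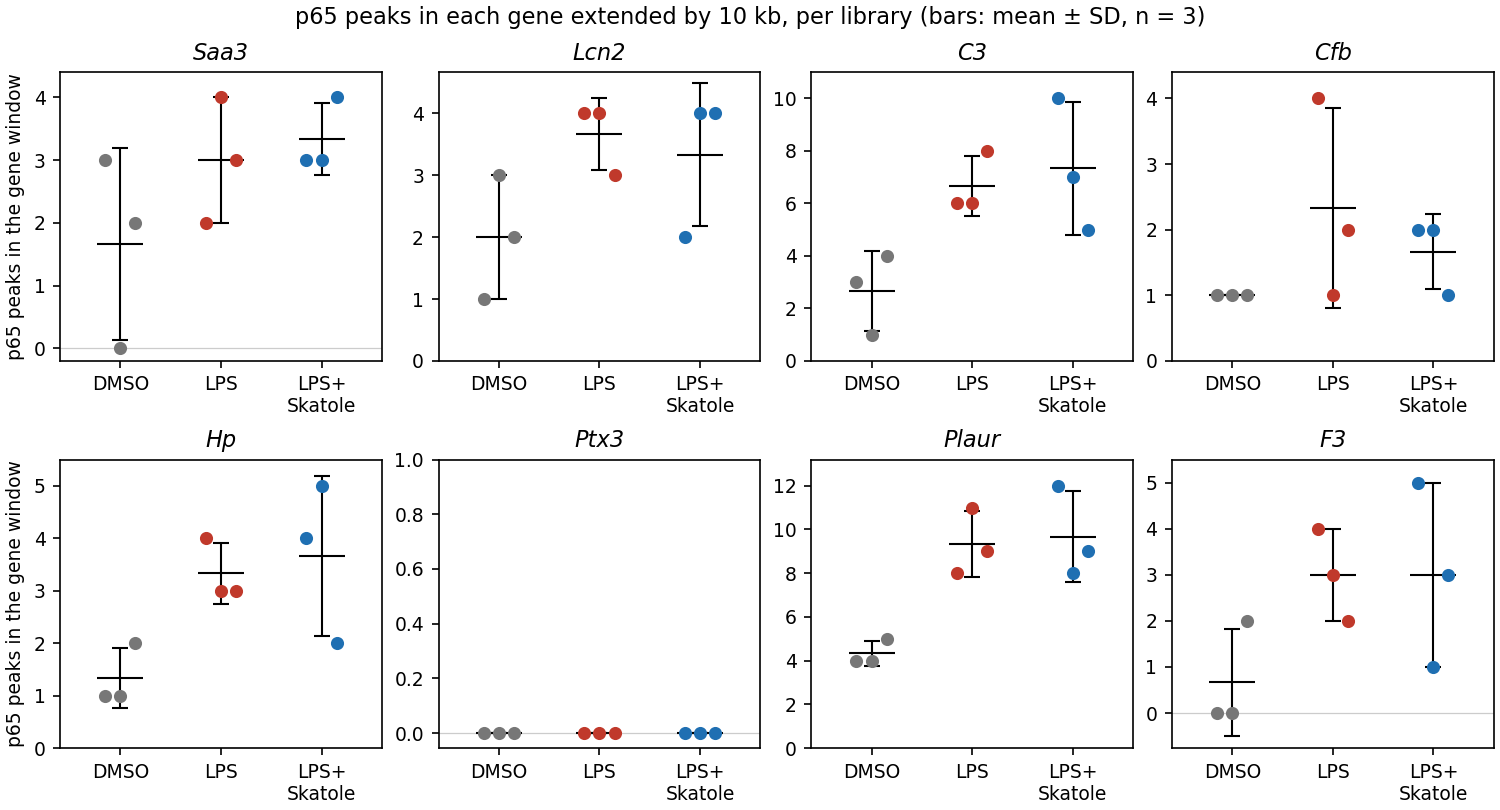
Number of p65 peaks (vertical axis) in each gene extended by 10 kb, for DMSO, LPS and LPS+Skatole libraries. Points are single libraries in the order of their replicate numbers and bars give the mean and SD of 3. At C3, Hp and Plaur all LPS points lie above all DMSO points, and Ptx3 is at 0 throughout.

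Many of these peaks lay nearer to a neighbour than to the gene itself. Of the 231 peaks, 130 (56.3%) had their summit in the gene or nearer to one of its ends than to an end of any other protein-coding gene. This was so for 20 of 20 peaks at F3, 56 of 70 at Plaur, 26 of 50 at C3 and 13 of 25 at Hp. It was so for 9 of 24 at Saa3, 5 of 27 at Lcn2 and 1 of 15 at Cfb. The strongest summits in the windows of Lcn2, Cfb and Hp belonged to ends of other genes in all 9 libraries. Merged across libraries, the peaks formed 61 regions, of which 6 were present in all 9 libraries (9.84%, beside 5.88% of 235070 regions of the genome) and 21 in a single library (34.4%, beside 71.3%). The genome shares count all regions, also those outside any gene window, so the sets are unlike. The same holds for the genome shares of regions given below.

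**Figure D2:**
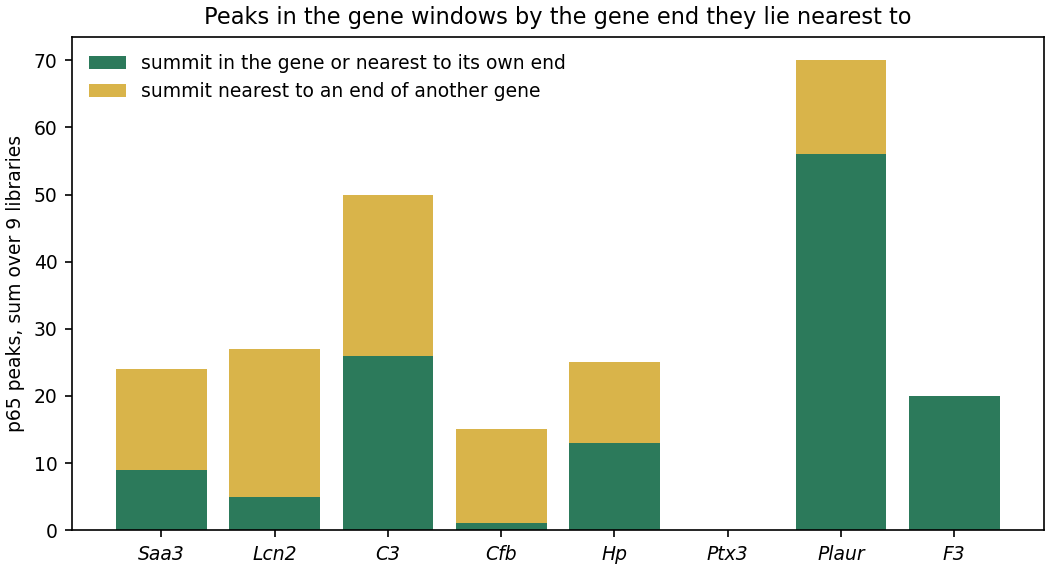
Number of p65 peaks summed over the 9 libraries (vertical axis) in the window of each gene, split by whether the summit lies in the gene or nearest to its own end (green) or nearest to an end of another gene (yellow). F3 and Plaur hold mostly peaks of their own, Lcn2 and Cfb mostly those of neighbours.

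The comparison of LPS with DMSO asks where p65 peaks appeared with LPS. The number of peaks was higher in every LPS than in every DMSO library at 3 of 7 genes, C3, Hp and Plaur, beside 12.2% of all 19505 genes with a peak. The median difference of the means was 2 peaks for the 7 genes and 0.667 for all genes. With summit counts scaled to the shallowest library, C3, Hp and Plaur remained, beside 5.94% of genes. With lists of equal length Hp and Plaur remained, beside 3.09%. Plaur had 4.33 ± 0.577 peaks with DMSO and 9.33 ± 1.53 with LPS, and C3 had 2.67 ± 1.53 and 6.67 ± 1.15 (SD, n = 3, exact two-sided permutation p = 0.1 each, the smallest p that 3 libraries against 3 allow). Without LPS replicate 3, Lcn2 and F3 also met the rule, which made 5 genes, beside 16.7% of all genes without that library. Within 3 kb of the genes it was met at 1 gene, Plaur, beside 9.83% of genes, and by peaks of the gene itself at Hp and Plaur, beside 10.5%. The strongest summit was higher in every LPS library at none of the 7 (0, beside 3.64% of all genes) and lower at 1, Hp (beside 18.9%). That Hp summit lay at an end of Dhx38. No DMSO library had a peak counted as one of Hp itself, so no order of heights can be read there. DMSO replicate 3 had a peak of height 12.5 beyond the end of Hp, but its summit was nearer to another gene. Of 18 regions present in all 3 LPS libraries, 2 were in 0 DMSO libraries, beside 10.1% of such regions across the genome, a share near that background.

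The comparison of LPS+Skatole with LPS asks where skatole was accompanied by a change in these peaks. The number of peaks did not separate the groups at any of the 7 genes: 0 were higher with skatole, beside 9.1% of all genes, and 0 were lower, beside 0.774%. The differences of the means ran from 0.667 fewer peaks at Cfb to 0.667 more at C3, each smaller than the SD of at least 1 of the groups. For lists of equal length the longer LPS+Skatole lists were cut the most. The differences then ran from -2 peaks at Lcn2 to 0 at F3, with fewer peaks under skatole at Saa3, Lcn2, C3, Cfb, Hp and Plaur (exact permutation p = 0.2 to 1). At Lcn2 this cut, at 37551 peaks, took out a peak at an end of Ptges2 that was present in all 9 full lists. It ranked 60865 and 49451 in LPS+Skatole replicates 1 and 2. The sums over the 8 windows were then 23 to 26 with LPS and 17 to 21 with LPS+Skatole and did not overlap, whereas with depth scaling they did. The strongest summit was higher in every LPS+Skatole library at 1 of 7, C3, beside 18.3% of all genes, and lower at 0, beside 1.44%. Of 15 regions present in all 6 libraries, 3 had a greater height with skatole (1 at C3 and 2 at Plaur), beside 24.2% of such regions. In height, 1 was lower (beside Lcn2, at an end of 1110008P14Rik), beside 1.55%. With the authors' fold the order was lost at the C3 region and at the Plaur region upstream of the start. No region was present in all 3 LPS and 0 LPS+Skatole libraries (0 of 18, beside 1.14%) or the reverse (0 of 17, beside 4.45%). Against DMSO, the number of peaks in LPS+Skatole was higher in every library at 2 genes, C3 and Plaur (beside 25.4%). The strongest summit was so at 1, F3 (beside 10.7%). DMSO replicates 1 and 2 had no peak at F3 and were set to 0, so no order of heights can be read there.

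A joint exact permutation test over the 3 groups, adjusted over all 19505 genes by the Benjamini-Hochberg method, called 0 genes at an adjusted p of 0.05 for the number of peaks (0.0%) and 0 for the strongest summit (0.0%). Unadjusted p was under 0.05 at 3083 genes (15.8%) and 3231 genes (16.6%). By this exact permutation test, the joint p for the number of peaks was 0.0357 at Plaur (adjusted p = 0.259) and 0.0429 at C3 (adjusted p = 0.282). For the strongest summit the same exact permutation test gave a joint p of 0.0321 at F3 (adjusted p = 0.252). There DMSO replicates 1 and 2 had no peak and entered at 0, so this p does not rest on measured heights alone.

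**Figure D3:**
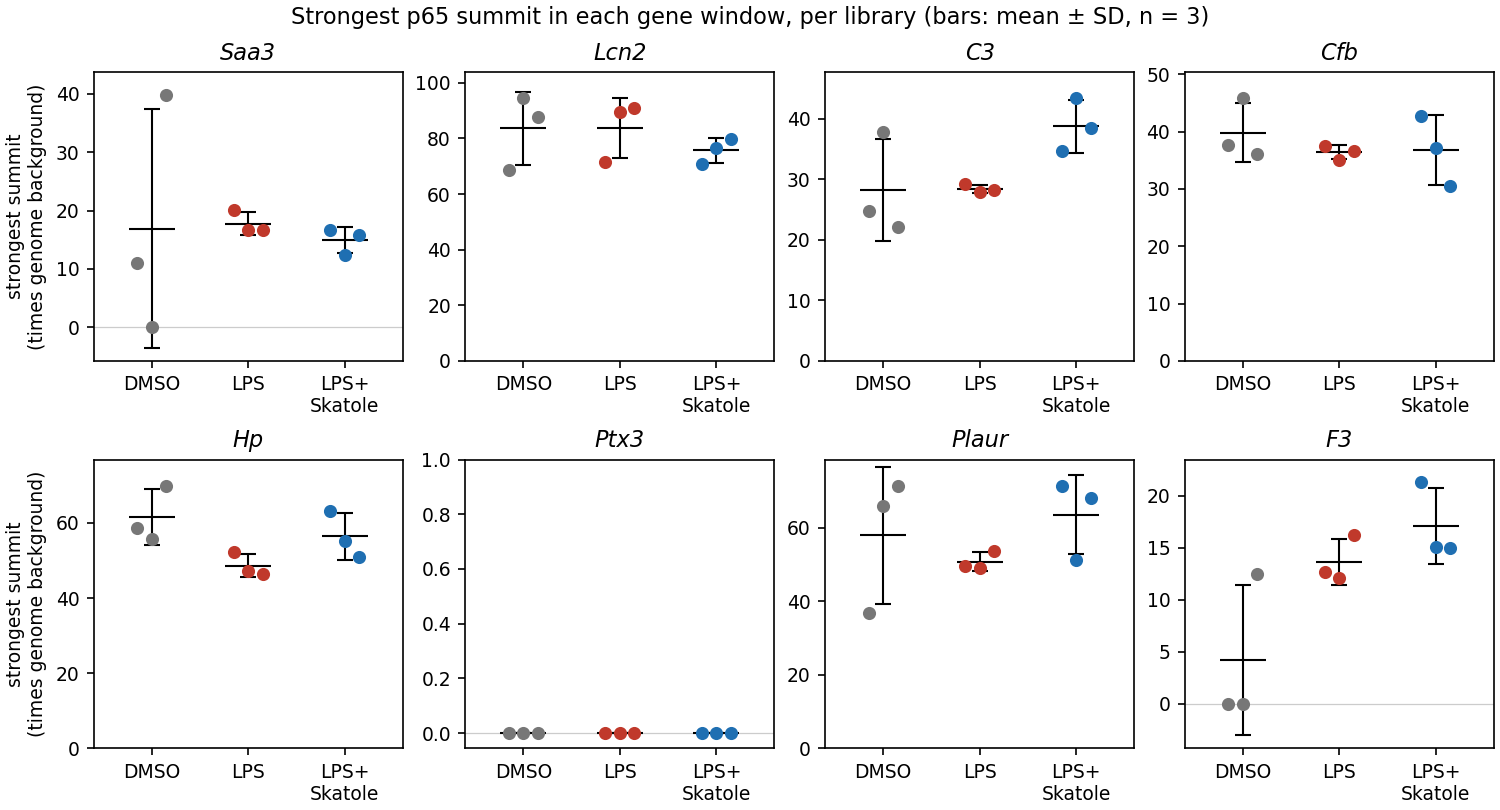
Height of the strongest p65 summit in each gene window (vertical axis, read count at the summit divided by the genome background of the library), with 0 where a library had no peak. Points are single libraries in the order of their replicate numbers and bars give the mean and SD of 3. At C3 all LPS+Skatole points lie above all LPS points.

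Saa3, a serum amyloid A gene that macrophages express in inflammation, had 24 peaks over the 9 libraries, 9 of them of the gene itself. The gene spans chr7:46711998-46719615 on the minus strand, and the RefSeq promoter table places its start at position 46715676. Its window held 3, 0 and 2 peaks with DMSO, 2, 4 and 3 with LPS, and 3, 3 and 4 with LPS+Skatole. The groups overlapped (LPS against DMSO, exact permutation p = 0.5). The region called most often lay about 5 kb after this start, just past the downstream end of the gene and 116 bp from an end of Saal1, in 1 DMSO, 3 LPS and 3 LPS+Skatole libraries. Its height was 39.7 in DMSO replicate 3, 20.05, 16.6 and 16.6 in LPS and 16.7, 11.5 and 15.9 in LPS+Skatole libraries. A region 888 to 1422 bp upstream of the start was present in 4 libraries, in DMSO replicates 1 and 3, LPS replicate 3 and LPS+Skatole replicate 1, with heights of 11.0, 18.4, 16.2 and 16.2. This region lies inside the span of the RefSeq gene. Another, 69 bp from the upstream end of that span, was present in 0 DMSO, 1 LPS and 2 LPS+Skatole libraries. No peak lay over the promoter, that is the 250 bases before the start and the 50 bases from it on.

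Lcn2, which encodes the siderophore-binding protein lipocalin 2, spans chr2:32384637-32387739 on the minus strand. Its window held 1, 3 and 2 peaks with DMSO, 4, 4 and 3 with LPS and 2, 4 and 4 with LPS+Skatole, so the groups overlapped (LPS against DMSO, exact permutation p = 0.2). Most of the signal was not at Lcn2. The strongest peak, in all 9 libraries, had its median summit 10 bp from an end of Ptges2 (prostaglandin E synthase 2), about 8 kb upstream of Lcn2. Its height was 68.8, 94.4 and 87.6 with DMSO, 71.5, 89.4 and 90.9 with LPS and 70.9, 76.5 and 79.8 with LPS+Skatole, and the groups overlapped. The rank of this peak varied far more than its height, from 1771 in LPS replicate 2 to 60865 in LPS+Skatole replicate 1. The caller's local background there was 23.7 and 103.7 reads. The strongest summit differed between LPS+Skatole and LPS by -8.18, and by -20.0 with depth scaling (exact permutation p = 0.3 each). With lists of equal length, where the cut removed this peak from LPS+Skatole replicates 1 and 2, it differed by -50.8 (exact permutation p = 0.2). At an end of 1110008P14Rik, on the other side, the height was 41.0, 39.1 and 49.1 in LPS and 35.5, 37.6 and 35.9 in LPS+Skatole libraries. All 3 LPS+Skatole values were the lower ones, with a ratio of 0.844 (exact permutation p = 0.1), and of the DMSO libraries replicate 2 alone had the peak, at 71.5.

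Peaks at the start of Lcn2 itself were found in some libraries only. A region just upstream, chr2:32387959-32388546, was present in LPS replicates 1 and 2, with summits 385 and 493 bp before the start and counts of 54 and 41. LPS replicate 3, the DMSO libraries and the LPS+Skatole libraries had no peak there. In LPS+Skatole replicate 3 another peak, with its summit 81 bp inside the gene and a count of 21, reached the promoter. The promoter is shown because peaks of these 3 libraries overlapped it, and the capitals mark its match to the C/EBP site on the opposite strand, at bases −216 to −209 (the first transcribed base is 1, with no base 0).
Lcn2 promoter, GRCm38.p6, chr2:32387690-32387989, minus strand: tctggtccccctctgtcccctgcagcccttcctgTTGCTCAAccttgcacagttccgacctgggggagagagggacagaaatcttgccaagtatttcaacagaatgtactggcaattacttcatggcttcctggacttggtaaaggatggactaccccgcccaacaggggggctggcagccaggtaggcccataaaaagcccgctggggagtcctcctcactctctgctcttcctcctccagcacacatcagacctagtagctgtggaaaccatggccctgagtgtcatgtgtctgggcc

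Hp, which encodes the haemoglobin-binding protein haptoglobin, spans chr8:109575128-109579172. Its window held 1, 1 and 2 peaks with DMSO, 4, 3 and 3 with LPS and 4, 5 and 2 with LPS+Skatole. The LPS libraries all lay above the DMSO libraries (2.50 times as many, exact permutation p = 0.1), while LPS+Skatole overlapped both groups. The strongest peak in all 9 libraries lay 79 bp from an end of Dhx38, an RNA helicase gene, with ranks of 652 to 1473. Its height was 58.7, 55.8 and 69.9 with DMSO, 52.3, 47.2 and 46.5 with LPS and 63.3, 55.3 and 50.9 with LPS+Skatole. All LPS values were below all DMSO values, by a ratio of 0.792 (exact permutation p = 0.1). With the authors' fold in place of the height this order was lost (exact permutation p = 0.8), and the share of all genes that met it was 5.06%. Of the regions nearest to an end of Hp, the one called in the most libraries lay beyond its high-coordinate end. About 6.6 kb out, chr8:109585257-109586349 was present in DMSO replicate 3 with a height of 12.5, with LPS at 14.4, 16.2 and 11.1 and with LPS+Skatole at 15.8, 15.0 and 17.5. A weaker region beside it was present in 2 LPS and 2 LPS+Skatole libraries and in 0 DMSO libraries. Over the gene body or its ends there was 1 peak in LPS replicate 2 and 1 in LPS+Skatole replicate 1, each with a count of 18.

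Ptx3, the gene of the long pentraxin 3, spans chr3:66219887-66225806 on the plus strand and had 0 peaks in each of the 9 libraries. It was the only one of the 6 genes with a promoter in the RefSeq table whose promoter matched the strict κB consensus, a binding motif of NF-κB. Of the 32851 promoters of the table, 8.46% hold this consensus. Looser forms of the κB site were not looked for, so the other promoters may hold such forms. The Ptx3 promoter matched at 2 overlapping places on the plus strand, bases −1 to 9 and 1 to 10. The first is shown with its flanks, the match in capitals.
Ptx3 κB match: aatccaGGGGAACTCCctcgcg

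C3, the central complement component, spans chr17:57203967-57228136 on the minus strand. Its window held 3, 1 and 4 peaks with DMSO, 6, 6 and 8 with LPS and 10, 7 and 5 with LPS+Skatole. Both groups with LPS lay above all DMSO libraries and overlapped each other (LPS+Skatole against LPS, exact permutation p = 0.8). A peak covered the promoter in all 9 libraries, and its summit fell within the printed stretch in 7. The median summit lay 99 bp before the start. The height there was 18.4, 37.9 and 22.1 with DMSO, 24.0, 27.9 and 24.3 with LPS and 29.9, 43.4 and 25.5 with LPS+Skatole, with ranks of 2659 to 12351. These values overlapped between all groups (LPS+Skatole over LPS 1.30, exact permutation p = 0.2). The capitals mark a match to the C/EBP site on the opposite strand, at bases −45 to −38.
C3 promoter, GRCm38.p6, chr17:57228087-57228386, minus strand: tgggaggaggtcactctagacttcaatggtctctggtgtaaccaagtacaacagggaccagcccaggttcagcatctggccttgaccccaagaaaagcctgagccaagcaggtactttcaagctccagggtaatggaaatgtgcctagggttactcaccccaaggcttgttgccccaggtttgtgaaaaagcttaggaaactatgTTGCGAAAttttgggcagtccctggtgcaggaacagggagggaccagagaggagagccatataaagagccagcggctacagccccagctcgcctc

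The peaks that set LPS libraries apart at C3 lay away from the promoter. A region inside the gene, chr17:57218636-57220310, about 8.6 kb after the start, was present in LPS libraries with counts of 38, 37 and 47, in LPS+Skatole replicates 1 and 2 with 40 and 45, and in 0 DMSO libraries. Its 5 summits lay within 148 bp of each other. Downstream of the gene, chr17:57197762-57198862 was present in DMSO replicate 3 with a height of 19.1, in LPS libraries with 29.2, 22.9 and 28.2 and in LPS+Skatole libraries with 34.6, 30.1 and 38.4. The nearest gene end there was that of Tnfsf14, at 4225 bp. LPS+Skatole heights were all above LPS heights (ratio 1.28, exact permutation p = 0.1). With the authors' fold this order was lost, at 13.4, 10.6 and 13.1 in LPS and 15.9, 14.0 and 6.21 in LPS+Skatole libraries. A region 1509 bp beyond the end of C3, chr17:57202044-57202599, was present in LPS replicate 2 and in all LPS+Skatole libraries, with heights of 18.0 and of 9.40, 33.6 and 11.7. Taking the strongest summit of the whole window, C3 had 24.8, 37.9 and 22.1 with DMSO, 29.2, 27.9 and 28.2 with LPS and 34.6, 43.4 and 38.4 with LPS+Skatole. These summits were not all from 1 place. In replicates 1 and 3 of LPS and of LPS+Skatole the strongest was in chr17:57197762-57198862. In replicate 2 of each it was at the promoter. LPS+Skatole lay above LPS by 1.37 times (exact permutation p = 0.1). This order was lost within 3 kb, among peaks of C3 itself and with the authors' fold in place of the height (exact permutation p = 0.2 each), and within 50 kb the difference turned to -2.16 (exact permutation p = 1).

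Cfb, the gene of complement factor B, spans chr17:34856374-34862514, next to C2. Its window held 1 peak in each DMSO library, 4, 1 and 2 in LPS and 2, 2 and 1 in LPS+Skatole libraries, and the groups overlapped (LPS against DMSO, exact permutation p = 0.4). The peak present in all 9 libraries lay 58 bp from an end of Skiv2l. Its height was 37.6, 45.8 and 36.1 with DMSO, 37.5, 35.0 and 36.7 with LPS and 42.7, 37.2 and 30.5 with LPS+Skatole. At an end of Cfb itself, 136 bp inside the gene, there was a peak in LPS replicate 1, with a count of 51 and a rank of 13704, and in no other library. A region inside C2, 3535 bp from its end, was present in 2 LPS libraries and in 0 DMSO and 0 LPS+Skatole libraries.

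Plaur had the most peaks of the 8 genes, 70 over the 9 libraries or 2.22 per 10 kb and library, beside a median of 0.522 over all genes with a peak. The RefSeq gene spans chr7:24460937-24475970 on the plus strand, and the promoter table places its start at 24462483. Its window held 4, 4 and 5 peaks with DMSO, 8, 11 and 9 with LPS and 12, 8 and 9 with LPS+Skatole. DMSO was below both other groups in every library, and those groups overlapped (LPS+Skatole against LPS, exact permutation p = 1). The strongest peak covered the start in all 9 libraries. In 6 libraries, 2 of each group, its summit lay 1 to 7 bp after the start, and in the other 3 it lay 402 to 600 bp after it. Its height was 36.7, 65.8 and 71.4 with DMSO, 49.7, 49.0 and 53.8 with LPS and 71.4, 51.3 and 68.1 with LPS+Skatole, with ranks of 834 to 5152. The groups overlapped at this peak (LPS against DMSO, exact permutation p = 0.6; LPS+Skatole against LPS, p = 0.2). The promoter is shown with its AP-1 match at bases −69 to −63 and its C/EBP match at −59 to −52 in capitals.
Plaur promoter, GRCm38.p6, chr7:24462233-24462532, plus strand: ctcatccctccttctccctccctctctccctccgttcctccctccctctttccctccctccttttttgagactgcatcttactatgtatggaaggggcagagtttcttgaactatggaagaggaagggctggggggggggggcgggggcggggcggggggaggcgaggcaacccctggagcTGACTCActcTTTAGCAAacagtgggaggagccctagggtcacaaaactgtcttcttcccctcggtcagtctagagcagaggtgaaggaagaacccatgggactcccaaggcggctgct

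The Plaur regions called in LPS and in 0 DMSO libraries lay upstream of this peak. The region chr7:24459299-24460221, 2390 to 2580 bp before the start, was present in all LPS and LPS+Skatole libraries and in 0 DMSO libraries. In LPS replicate 1 it was called near the threshold, with a −log10 p of 5.60 and a rank of 53637 of 55637. Its height was 27.0, 15.3 and 20.1 in LPS and 41.9, 30.5 and 30.5 in LPS+Skatole libraries. In height, LPS+Skatole was above LPS in every library, by 1.65 times (exact permutation p = 0.1). With the authors' fold this order was lost, at 1.85, 3.87 and 5.07 in LPS and 2.74, 2.00 and 2.01 in LPS+Skatole libraries. The highest folds were those of LPS replicates 2 and 3. The local background the caller used there was 33.1, 8.05 and 8.47 reads in LPS and 35.2, 34.0 and 35.9 reads in LPS+Skatole libraries, and the ranks went from 20924 to 63945. Inside the gene, chr7:24466367-24468000, about 4.5 kb after the start, had heights of 17.4 and 25.0 in DMSO replicates 1 and 3, 12.2, 17.5 and 13.7 in LPS and 32.1, 18.6 and 20.9 in LPS+Skatole libraries. LPS+Skatole was again above LPS in every library (ratio 1.65, exact permutation p = 0.1), and the DMSO values lay in the range of LPS+Skatole or just below it. A further region about 8 kb after the start had heights of 11.0 and 10.7 in DMSO replicates 1 and 2, 19.6, 19.8 and 19.2 in LPS and 17.5, 25.2 and 15.4 in LPS+Skatole libraries, with a ratio of LPS+Skatole to LPS of 0.993 (exact permutation p = 1).

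F3, the tissue factor gene, spans chr3:121723537-121735052 on the plus strand and had low peaks near its start. Its window held 0, 0 and 2 peaks with DMSO, 4, 3 and 2 with LPS and 5, 1 and 3 with LPS+Skatole, and the groups overlapped (LPS against DMSO, exact permutation p = 0.2). The main region, chr3:121720907-121723927, was present in DMSO replicate 3 and in all LPS and LPS+Skatole libraries. Its strongest summit had a height of 12.5 in DMSO replicate 3, 12.6, 12.1 and 16.2 in LPS and 21.4, 15.0 and 15.0 in LPS+Skatole libraries. LPS+Skatole lay above DMSO replicate 3 and overlapped LPS (LPS+Skatole against LPS, exact permutation p = 0.3). DMSO replicates 1 and 2 had no peak at F3, so no order of heights against the DMSO group can be read. The strongest summits lay 1358 to 1623 bp before the start in 5 of these libraries, 385 bp before it in DMSO replicate 3 and 120 bp after it in LPS replicate 2. A peak overlapped the promoter in 5 libraries, DMSO replicate 3, LPS replicates 1 and 2 and LPS+Skatole replicates 1 and 2. The capitals mark its 2 AP-1 matches, at bases −146 to −140 and −135 to −129.
F3 promoter, GRCm38.p6, chr3:121723287-121723586, plus strand: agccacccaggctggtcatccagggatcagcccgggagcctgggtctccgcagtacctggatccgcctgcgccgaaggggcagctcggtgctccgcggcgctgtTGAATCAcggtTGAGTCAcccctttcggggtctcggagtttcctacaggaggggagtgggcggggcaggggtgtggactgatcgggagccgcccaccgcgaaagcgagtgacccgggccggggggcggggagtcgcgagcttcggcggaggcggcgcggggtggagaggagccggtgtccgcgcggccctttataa

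**Figure D4:**
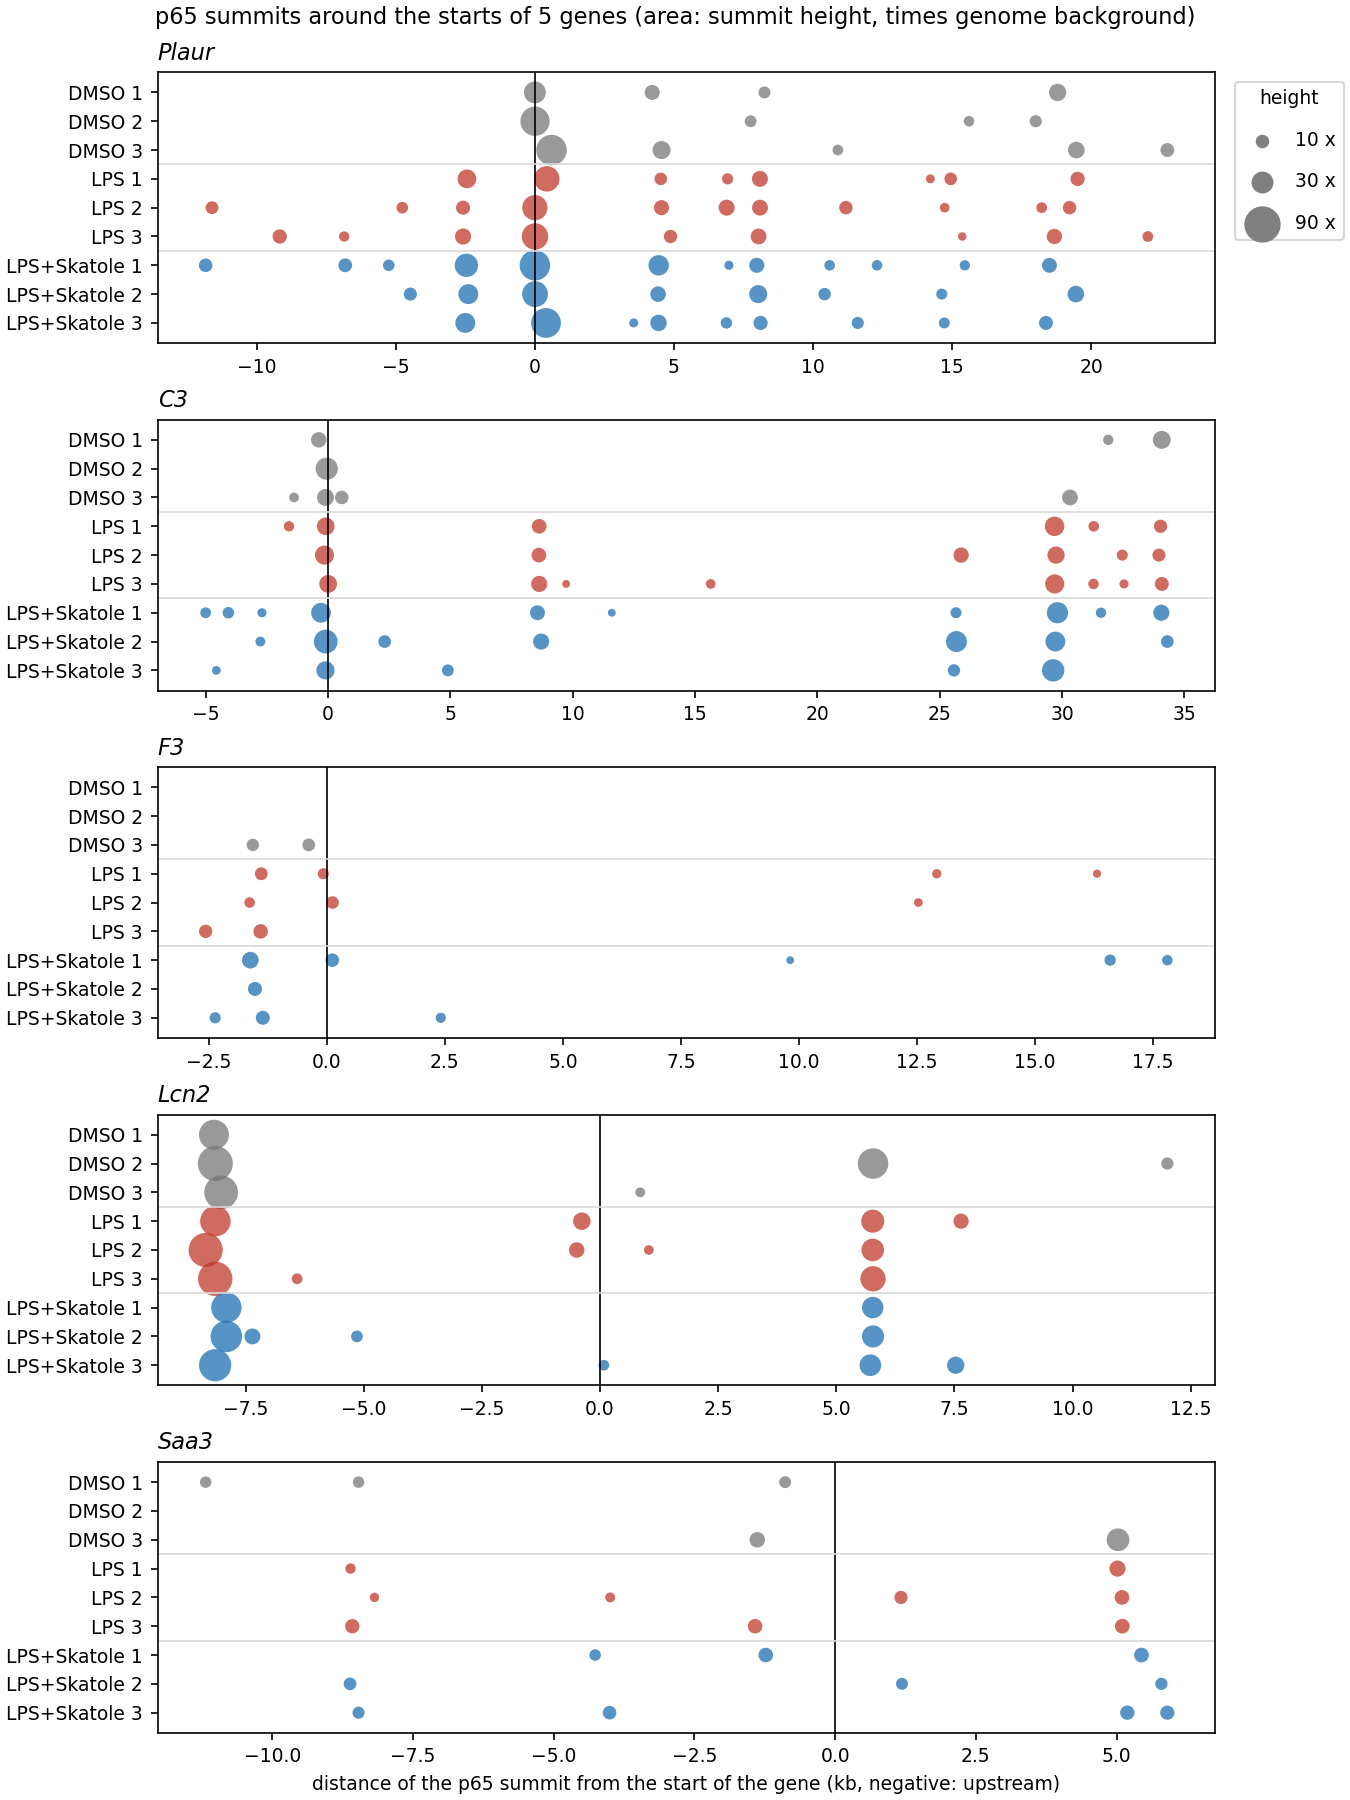
Positions of all p65 summits in the windows of Plaur, C3, F3, Lcn2 and Saa3, by distance from the start in kb (horizontal axis, negative upstream) and by library (rows). The area of a point is proportional to the summit height in multiples of the genome background, as in the key. Plaur and C3 have a summit at or near the start in every library and Saa3 has none over its promoter.

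The other motifs were looked for in the same 6 promoters. On either strand, the AP-1 site TGANTCA was found in the promoters of Plaur and F3 and in 7.81% of the 32851 promoters. The C/EBP site TTNNGCAA was found in those of Saa3, Lcn2, C3, Ptx3 and Plaur and in 10.8% of all. The AP-1 and C/EBP matches of Plaur do not overlap. A match describes the letters only.

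Of 66 further genes of the same systems, 65 had a peak in some library. The number of peaks was higher in every LPS than in every DMSO library at 9 of them, beside 12.2% of all genes. It was lower at 0. The 9 were 1 of 22 acute-phase, 5 of 27 complement and 3 of 16 clotting genes. These counts use the full lists, which were shortest with DMSO. With lists of equal length 3.09% of all genes were higher, and the 65 genes are not given in that setting. Plgrkt, a plasminogen receptor gene, had 2, 1 and 2 peaks in DMSO and 4, 6 and 7 in LPS libraries. Cfp, the gene of properdin, which stabilizes the alternative convertase, had 2 in every DMSO library and 3, 8 and 6 in LPS libraries. Cfd, the gene of factor D, which cleaves factor B, had 1, 3 and 1 and then 6, 4 and 6. F10, the gene of clotting factor X, had 1, 2 and 1 and then 3, 3 and 7.

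With skatole the number of peaks was higher than in every LPS library at 10 of the 65 genes, beside 9.1% of all genes. It was lower at 0. The 10 were 2 of 22 acute-phase, 7 of 27 complement and 1 of 16 clotting genes. These counts use the full lists, which were longest with LPS+Skatole. With lists of equal length 1.74% of all genes were higher and 2.25% lower, and the 65 genes are not given in that setting. C9, the gene of the pore-forming complement component, had 5, 4 and 4 peaks in LPS and 10, 7 and 10 in LPS+Skatole libraries. Itgam and Itgb2, which encode the chains of complement receptor 3, had 7, 4 and 4 against 10, 10 and 9, and 9, 7 and 8 against 14, 13 and 11. Saa2, a serum amyloid A gene, had 0 in every LPS library and 3, 3 and 2 in LPS+Skatole libraries, while the lists do not show whether its reads also matched the similar Saa1. Some of these windows overlap, as those of C1qb and C1qc do, so a peak can count for more than 1 gene. The strongest summit was higher with skatole at 19 of the 65, beside 18.3% of all genes, and lower at 1, beside 1.44%.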

How the data were processed

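CUT&Tag libraries of RAW264.7 cells (3 DMSO, 3 LPS, 3 LPS+Skatole) were analysed as peak lists, 1 per library; groups and replicate numbers came from the titles. The authors deposited narrowPeak lists per library. The deposited columns hold a score, the fold (a ratio of summit to expected count), the −log10 p-value and the −log10 q-value, and every peak had a −log10 p above 5. The submitters' processing notes name fastp 0.20.1, HISAT2 2.1.0, StringTie 2.0 and build mm10, with no role; the peak caller is not given in the sources used here. From fold and −log10 p the summit count and its expected background were recovered as (count + 1)/(background + 1) and a Poisson tail, and at least 99.99% of counts came out whole within 0.05. Depth in reads is unknown; the genome background stands in for it, and 54.1% to 62.0% of the peaks in a list sat at it. Peaks of the 19 autosomes and of X and Y were assigned to RefSeq genes (GRCm38) within 10 kb by an overlap of at least 1 bp. Peaks of different libraries were merged where they overlapped. Groups were compared by whether all libraries of one lay above all of another, by exact two-sided permutation tests (smallest p 0.1) and by a joint exact test (smallest p 0.00357) adjusted over all genes with a peak. Named beyond the 8 genes were, from a list of 66, those whose peak numbers did not overlap, at most 4 per direction and pair by the largest difference. The members and lists were chosen with earlier results of these data known. Promoter sequences came from RefSeq (GRCm38.p6), in which 6 of the 8 genes matched. The recovery was tested on simulated data, where 100.0% of 19834 drawn counts were returned. Python 3.11.15, numpy 2.4.6, pandas 2.3.3, scipy 1.17.1 and matplotlib 3.10.9 were used. Alternatives were lists of equal length, depth scaling, a minimum height of 8, windows of 3 and 50 kb, summits within the window, peaks of the gene itself, the authors' fold, a replicate block and leaving out each library.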

Additional observations from a re-analysis of the deposited data

How the results depend on the processing

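Higher peak numbers in LPS than in DMSO libraries held at 3 genes with depth scaling (beside 5.94% of all genes), a minimum height of 8 (5.3%) and summits within the window (12%). They held at 2 with lists of equal length (3.09%) or peaks of the gene itself (10.5%), at 1 within 3 kb (9.83%), at 5 within 50 kb (25%), and at 3 to 5 with a library left out (12.4% to 19.7%). Higher peak numbers with skatole than with LPS were found at 0 genes, except 1 within 50 kb (15.5%). A higher strongest summit in LPS than in DMSO was found at 1 gene with peaks of the gene itself (4.25%) or the authors' fold (8.53%), and at 0 to 2 with a library left out (3.69% to 6.22%). The gene was Hp in the first setting and F3 in the second. At both, DMSO libraries without a counted peak stood at 0, so no order of heights can be read. A lower one in LPS than in DMSO was found at 3 genes within 50 kb (24.9%) and at 1 to 2 with a library left out (19.2% to 26.3%). It was found at 0 genes within 3 kb (17.2%), with peaks of the gene itself (14.7%) and with the authors' fold (5.06%). A higher strongest summit with skatole was found at 0 genes within 3 kb (16.8%), within 50 kb (22.1%), with peaks of the gene itself (16.7%) and with the authors' fold (16.9%), and at 1 to 3 with a library left out (18.4% to 27.5%). A lower one with skatole was found at 1 gene, Saa3, with lists of equal length (1.51%) and at 1 other, Lcn2, within 3 kb (1.69%). With a library left out it was found at 0 to 1 (1.45% to 3.51%). The mean number of the 8 genes with a peak was 6.67 in LPS+Skatole with lists of equal length. In DMSO, LPS and LPS+Skatole it was 3.67, 5.67 and 5.67 within 3 kb and 3.33, 5.67 and 5.33 with peaks of the gene itself. Within 50 kb it was 7.67 in LPS and 7.33 in LPS+Skatole. The difference of the strongest summit at Hp between LPS and DMSO was 2.70 within 3 kb and 13.9 with peaks of the gene itself. Both leave out the Dhx38 peak and set LPS against DMSO libraries with no counted peak, at 0. The first rests on a single peak of LPS replicate 2. For the second, a DMSO replicate 3 peak of height 12.5 in the same region had its summit nearer to another gene. The 2 values therefore show no order of heights. That at C3 between LPS+Skatole and LPS turned to -2.16 within 50 kb, and the cause was not tested. Among the values for single genes, the sign changed in 3 of 87 where the groups were separate, those given here, and in 38 of 473 where they overlapped.

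No pairing of the libraries by replicate number was seen. Deviations from the group means correlated at -0.0247 to 0.0296 between libraries of the same number and at -0.02 to 0.0275 between others. With 3 libraries per group this cannot show whether libraries of the same number were handled together. With the replicate number as a block, exact sign flips gave p = 0.25 for the peak numbers of C3, Hp, Plaur and Lcn2 in LPS against DMSO, the smallest p that 3 pairs allow. A weak peak in a shallow DMSO library can fall under the threshold of the caller, so a missing peak means that none was called at this depth.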
